A study of Homo sapiens with 2 samples.

Results

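MicroRNA genes with known roles in blood cells were examined for LDB1 peaks in NB4 cells, a line grown from a human promyelocytic leukemia. The set was 10 annotated genes, 6 of them microRNA hairpins (MIR144, MIR451A, MIR223, MIR142, MIR21 and MIR146A) and 4 of them long noncoding host genes (MIR155HG, MIR181A1HG, MIR17HG and MIR22HG). They are 10 of the 62663 genes of GENCODE release 44 on the chromosomes used. A deposited peak belonged to a gene when it overlapped the gene extended by 20 kb on each side, by at least 1 bp. By this rule 17 of the 11046 deposited LDB1 peaks were taken. The peaks came from CUT&Tag, in which an antibody guides a transposase that cuts and tags the DNA beside the bound protein. The series holds 1 library made with an LDB1 antibody, from cells labelled as carrying LDB1 overexpression, and 1 library made with IgG from untreated cells. The CUT&Tag methods of the paper name NB4 cells and do not mention overexpression. By the labels antibody and treatment differ together, there are no replicates, and the IgG library was not analysed here. The peak list gives positions and lengths without heights, so read depth behind each peak is unknown, no test between libraries could be made, and the intervals below cover counting error only. No RNA was measured in this series, so expression of these microRNAs, and of markers that would check the cell line, was not assessed.

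MicroRNAs are short RNAs that pair with messenger RNAs, mainly through their seed, bases 2 to 8, and lower translation and stability of the messenger. They are cut from hairpins in longer primary transcripts, and for this reason the promoter may lie far upstream of the hairpin. LDB1 does not touch DNA itself. It binds the LIM domains of LMO2, which in turn contacts TAL1 and GATA proteins, and in red cells this complex is known for loops between enhancers and promoters. MIR144 and MIR451A are processed from a shared red cell transcript, and GATA1 is a known activator of that transcript. MIR223 is abundant in granulocytes and monocytes and restrains granulocyte production.

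Of the 16 hairpins that the 10 genes carry, 15 had mature arms in the RefSeq table (GRCh38.p14), 29 arms with 25 different seeds. The hairpin without an entry was MIR451A. The arms below belong to MIR144, MIR223 and MIR22HG, which carried peaks, with the seed in capitals. Among the 29 arms, no seed of these loci was shared.
miR-144-3p: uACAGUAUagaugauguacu
miR-144-5p: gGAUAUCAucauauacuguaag
miR-223-3p: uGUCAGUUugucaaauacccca
miR-223-5p: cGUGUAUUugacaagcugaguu
miR-22-3p: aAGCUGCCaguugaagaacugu
miR-22-5p: aGUUCUUCaguggcaagcuuua

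The next arms belong to loci that carried no peak and are shown for comparison. Seeds were shared within a host gene only, by miR-17-5p and miR-20a-5p in MIR17HG and by miR-181a-5p and miR-181b-5p in MIR181A1HG. In MIR17HG the arms of MIR19A and MIR19B1 also shared their seeds.
miR-142-3p: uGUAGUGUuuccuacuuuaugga
miR-155-5p: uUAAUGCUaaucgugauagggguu
miR-181a-5p: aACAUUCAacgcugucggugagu
miR-181b-5p: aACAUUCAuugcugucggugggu
miR-17-5p: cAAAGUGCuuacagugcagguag
miR-20a-5p: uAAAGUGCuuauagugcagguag
miR-21-5p: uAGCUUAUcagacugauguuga
miR-146a-5p: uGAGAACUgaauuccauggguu

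To see which of these genes had LDB1 nearby, peaks were counted in each extended gene. Results showed that 4 of the 10 genes had a peak (Wilson 95% interval 16.8 to 68.7%), compared with 20.9% of all annotated genes under the same rule. MIR144 and MIR451A had 8 peaks, which they share because the hairpins are neighbours, MIR22HG had 5 and MIR223 had 4. MIR142, MIR155HG, MIR181A1HG, MIR17HG, MIR21 and MIR146A had none. Among hairpins 3 of 6 had a peak (18.8 to 81.2%), compared with 18.8% of the 1879 annotated miRNA genes. Among host genes 1 of 4 had a peak (4.56 to 69.9%), compared with 19.5% of 18866 annotated long noncoding genes. With MIR144 and MIR451A counted as 1 region, 3 of 9 separate regions had a peak (12.1 to 64.6%). Each of these intervals includes the share of all genes of its kind, for the hairpins only just, at the lower limit. MIR144 and MIR451A share all their peaks, so the 6 hairpins are not independent. At this number of genes a difference from the background was thus not detectable. High numbers of peaks were less common. Of all miRNA genes, 0.373% had at least 8 peaks, and of those 7 genes 4 lie in the MIR144 region itself. At least 4 peaks, as at MIR223, were found at 2.71% of miRNA genes. At least 5 peaks, as at MIR22HG, were found at 1.51% of long noncoding genes.

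**Figure D1:**
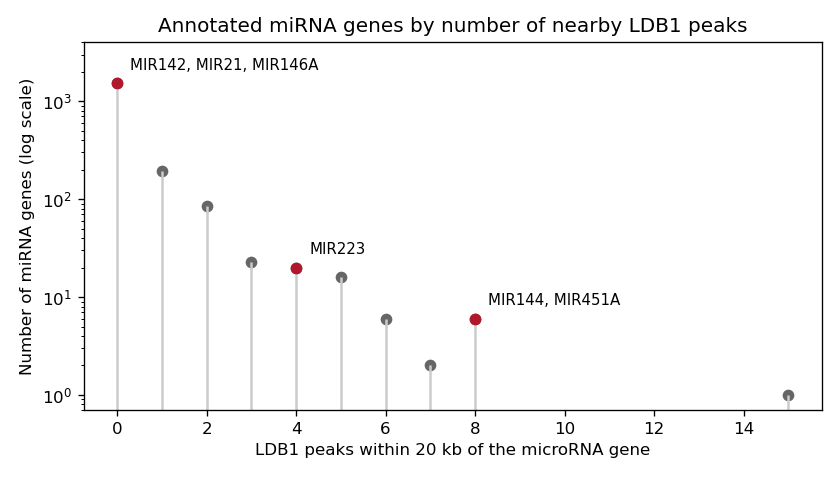
Number of LDB1 peaks within 20 kb of each annotated miRNA gene (horizontal axis, peaks) against the number of genes with that count (vertical axis, log scale). Red points are the counts that hold the named hairpins: 1526 genes, MIR142, MIR21 and MIR146A among them, had 0 peaks, 20 genes, MIR223 among them, had 4, and 6 genes, MIR144 and MIR451A among them, had 8.

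MIR144 (ENSG00000283819.1) lies on chromosome 17 from 28861533 to 28861618 on the minus strand, and MIR451A (ENSG00000284565.1) from 28861369 to 28861440 on the same strand. Peaks covered 7284 bp of the 40086 bp around MIR144, or 18.2%, while the whole list covered 0.215% of the genome. The stretch without protein-coding genes between ERAL1 and FLOT2 (18.3 kb), in which both hairpins lie, held 6 of the 8 peaks, and 30.2% of its bases were in a peak. Seen from the hairpins, peaks were thus mostly on the upstream side, 7 upstream of the MIR144 start by their midpoint and 1 downstream of it.

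A peak of 689 bp (chr17:28861462-28862150) covered the whole MIR144 hairpin. Its midpoint was 188 bp upstream of the MIR144 start and 366 bp upstream of the MIR451A start, and its edge was 22 bp from the MIR451A hairpin. It also overlapped the neighbouring hairpin MIR4732 and the start of an unnamed long noncoding gene (ENSG00000264066.7), whose only annotated transcript begins in the peak and runs over MIR144 and MIR451A. Of all 1879 miRNA genes, 0.852% were overlapped by a peak. The central 200 bp of this peak, upstream of the MIR144 hairpin, are shown because this is the window in which motifs were counted (chr17:28861706-28861905, hg38, plus strand). Capitals mark the RUNX sequence, and no GATA sequence was in this window, while the whole peak held 1.
MIR144 start peak: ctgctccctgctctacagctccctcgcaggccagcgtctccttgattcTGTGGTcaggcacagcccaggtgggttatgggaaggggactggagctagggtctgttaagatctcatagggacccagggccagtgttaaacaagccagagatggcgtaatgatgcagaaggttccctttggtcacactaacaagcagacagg

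The next peak upstream was 405 bp long, with its midpoint 1.07 kb from the MIR144 start. Beyond it came the longest peak of the region, 2274 bp (chr17:28864312-28866585), with its midpoint 3.83 kb upstream of MIR144. It ranked 96 in length among all 11046 peaks, so that 0.869% of the peaks were at least as long. It overlapped no annotated gene. Peaks of 568, 643 and 935 bp followed with midpoints 6.17, 9.80 and 11.4 kb upstream. The farthest upstream peak, 1283 bp with its midpoint 18.5 kb from MIR144, lay in the last exon of FLOT2, which encodes a membrane raft protein. The peak on the downstream side (487 bp) had its midpoint 9 bp from an annotated transcript start of FAM222B. It also covered the start of ERAL1, a gene for an assembly factor of mitochondrial ribosomes. Gaps between neighbouring peaks of the region ranged from 337 to 6219 bp.

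The 2274 bp peak held the most GATA sequences of the 17 peaks in its central 200 bp, although not per length over the whole peak, where it held 5 and the 253 bp peak of MIR223 held 2. GATA sequences, the letters that GATA factors read, were AGATAA and its variant AGATAG, as well as TGATAA and its variant TGATAG, on either strand. In the 200 bp around its midpoint it held 4 of them, and at least 4 were found in 0.480% of all peaks. It also held the composite of the LDB1 complex, CTG followed after 7 or 8 bases by a GATA sequence, here with a gap of 8 bases. The window is shown with the GATA sequences in capitals (chr17:28865348-28865547, hg38, plus strand), followed by the composite on the minus strand with its 17 bases in capitals (chr17:28865331-28865387).
MIR144 upstream peak: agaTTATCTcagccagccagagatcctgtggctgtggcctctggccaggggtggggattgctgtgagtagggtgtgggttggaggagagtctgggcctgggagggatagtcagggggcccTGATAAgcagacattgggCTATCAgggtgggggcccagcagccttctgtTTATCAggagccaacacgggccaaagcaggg
MIR144 upstream composite: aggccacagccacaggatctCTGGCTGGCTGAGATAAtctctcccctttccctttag

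**Figure D2:**
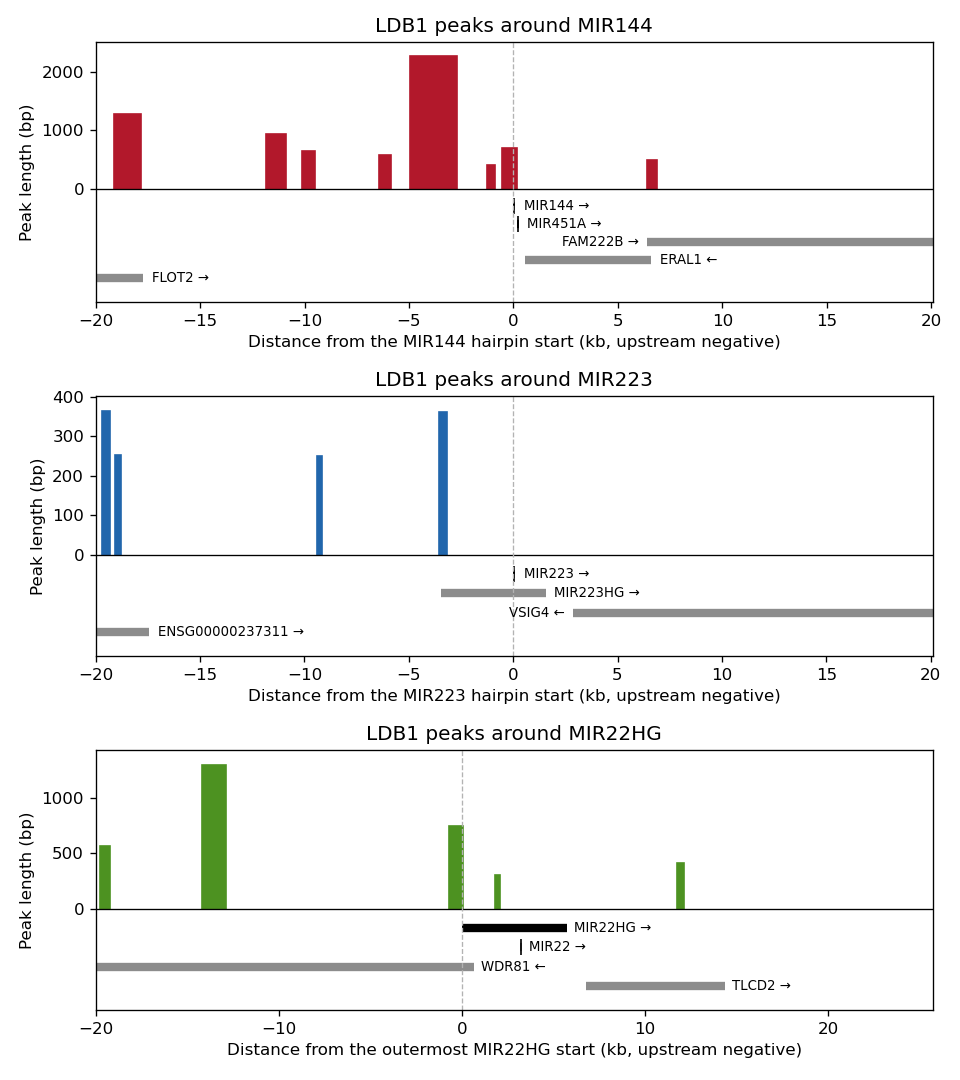
Peaks at the MIR144, MIR223 and MIR22HG loci, each drawn as a bar as wide as the peak, against distance from the hairpin start or the outermost host gene start (horizontal axis, kb, upstream negative), with peak length on the vertical axis (bp). Black marks are the named microRNA genes, grey bars are other genes, and arrows give the direction of transcription. The 2274 bp bar upstream of MIR144 is the longest of the 17, and all 4 bars at MIR223 lie upstream of the hairpin.

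MIR223 (ENSG00000284567.1) lies on chromosome X from 66018870 to 66018979 on the plus strand. All 4 of its peaks were short, between 250 and 365 bp, below the median of 451 bp of the whole list, and all lay upstream. Peaks covered 3.06% of its extended gene. The nearest, 361 bp (chrX:66015317-66015677), was 3.37 kb upstream of the hairpin by its midpoint. This position is the annotated start of the host gene MIR223HG (ENSG00000274536.9), where the midpoint lay 83 bp inside the gene. All 5 annotated transcripts of MIR223HG began within this peak. The microRNA hairpin itself, 3456 bp into the host gene, was not covered. The peak window is shown because it holds the host gene start (chrX:66015397-66015596, hg38, plus strand), with E-box sequences, CANNTG, in capitals. The window had no GATA sequence, while the whole peak held 1.
MIR223HG start peak: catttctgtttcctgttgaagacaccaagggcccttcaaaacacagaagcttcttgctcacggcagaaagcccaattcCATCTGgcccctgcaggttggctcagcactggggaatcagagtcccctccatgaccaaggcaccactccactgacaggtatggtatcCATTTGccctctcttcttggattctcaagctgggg

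The other 3 peaks of MIR223 had lengths of 250, 253 and 365 bp and midpoints 9.29, 18.9 and 19.5 kb upstream. The farthest had its edge 19.3 kb from the hairpin, just inside the 20 kb limit. A further peak of 667 bp lay 20.3 kb away, 326 bp outside the limit, and was not counted, although it lay within 20 kb of MIR223HG, which had 5 peaks. The peaks at 18.9 and 19.5 kb lay in an unnamed long noncoding gene (ENSG00000237311.3). For both midpoints the nearest annotated start of any gene was a transcript start of this gene. It was 65 bp from the midpoint of the 253 bp peak, at 18.9 kb. Whether these peaks belong to MIR223 or to the unnamed gene was not tested. VSIG4, a macrophage complement receptor gene on the downstream side, was the nearest protein-coding gene for all 4, with its nearest annotated transcript start at least 18167 bp away. The 253 bp peak held a GATA sequence 2 bp from its midpoint, in capitals below (chrX:65999841-66000040, hg38, plus strand).
MIR223 distal peak: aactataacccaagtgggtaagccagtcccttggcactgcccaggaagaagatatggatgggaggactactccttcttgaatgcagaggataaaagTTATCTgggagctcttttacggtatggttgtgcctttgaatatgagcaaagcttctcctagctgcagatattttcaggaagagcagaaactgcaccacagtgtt

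MIR22HG (ENSG00000186594.16) hosts MIR22, a microRNA known to act on TET2 in myeloid leukemia. The host gene lies on chromosome 17 from 1711447 to 1717174 on the minus strand. It had 5 peaks, between 305 and 1299 bp, which covered 7.27% of the extended gene. A peak of 750 bp (chr17:1717125-1717874) covered the outermost annotated start, with its midpoint 325 bp upstream of it. However, only 1 of the 32 annotated transcripts begins there. The other 31 begin between 1716206 and 1716341, and from their median start the peak was 1252 bp upstream. On the other side of these starts a peak of 305 bp lay in an intron of the host gene, with its midpoint 1027 bp downstream of the median start. Most annotated starts thus lay between the peaks and inside neither. The WDR81 gene, which encodes a protein of endosome traffic, starts in the opposite direction close by. The midpoints of the 750 and 305 bp peaks were 898 and 1303 bp, respectively, from the annotated WDR81 start nearest to each. MIR22HG and WDR81 thus cannot be told apart as the genes the peaks belong to. The 750 bp peak held a GATA sequence 2 bp from its midpoint, in capitals below (chr17:1717399-1717598, hg38, plus strand).
MIR22HG start peak: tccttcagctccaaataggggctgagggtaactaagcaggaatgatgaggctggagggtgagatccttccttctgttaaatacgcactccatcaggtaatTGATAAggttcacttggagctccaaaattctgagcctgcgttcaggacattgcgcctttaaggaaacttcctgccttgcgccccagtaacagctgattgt

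The longest peak at MIR22HG (1299 bp, chr17:1730057-1731355) was 13.5 kb upstream of the host gene, with its midpoint in an exon of WDR81 and 235 bp from an annotated WDR81 start. It held a composite 355 bp from the midpoint, outside the central 200 bp. The composite is shown on the minus strand with its bases in capitals (chr17:1730323-1730379). Like the one upstream of MIR144 it had a gap of 8 bases.
WDR81 peak composite: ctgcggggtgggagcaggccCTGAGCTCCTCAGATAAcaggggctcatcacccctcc

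The remaining peaks near MIR22HG were 562 bp long in an intron of WDR81, 19.5 kb upstream, and 410 bp long in an exon of TLCD2, 11.9 kb downstream. The 562 bp peak was 19.2 kb from the host gene by its edge, inside the limit, and the next peak, 45.4 kb away, was outside it.

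Lengths were then compared among the loci. Results showed that peaks at MIR144 were the longest, with a median of 666 bp and a range of 405 to 2274 bp. MIR22HG had a median of 562 bp. MIR223 had a median of 307 bp, and none of its peaks reached the shortest at MIR144. Over the 17 peaks the median was 562 bp, 10 were longer than the median of the whole list, and 3 were among its longest 10%. The central 31 bases of all 17 peaks occur once in hg38, as do those of 89.3% of all peaks.

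**Figure D3:**
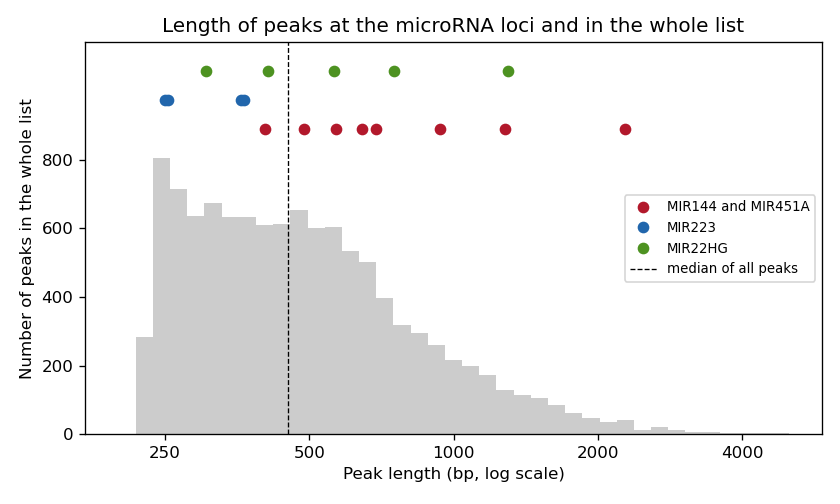
Peak length (horizontal axis, bp, log scale) of the whole list, as grey bars counting peaks (vertical axis), with the peaks of the MIR144 region (red), MIR223 (blue) and MIR22HG (green) as points above. The 4 MIR223 peaks lie left of the dashed median of 451 bp, and 7 of the 8 MIR144 peaks lie right of it.

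To describe the DNA under these peaks, sequences of known LDB1 partners and of other blood cell factors were counted on both strands in the 200 bp around each midpoint. GATA sequences were found in 4 of 17 peaks (23.5%, 9.56 to 47.3%), compared with 47.1% of all peaks, a value just inside the interval. They were the 2274 and 935 bp peaks upstream of MIR144, the 253 bp peak of MIR223 and the 750 bp peak of MIR22HG. In whole peaks, which differ in length, the count rose to 11 of 17, compared with 71.4% of all peaks. Per kb of peak sequence there were 1.60 GATA matches at the listed loci and 2.64 in the whole list. The composite was found in 1 of 17 (5.88%, upper limit 27.0%), compared with 11.1% of all peaks, and in 2 of 17 when whole peaks were searched.

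The E-box CANNTG, which TAL1 and many other factors read, was found in 13 of 17 peaks, compared with 71.0% of all peaks. RUNX sequences (TGTGGT or TGCGGT) were found in 3, compared with 20.5%. ETS sequences, spelled CCGGAA or else as AGGAAG, were found in 5, compared with 28.2%. KLF sequences, spelled GGGTGTG or else as GGGCGTG or else as GGGTGGG, were found in 4, compared with 21.6%. CEBP sequences, spelled TTGCNNAA or else as TTGCNNCA, were found in 1, compared with 15.4%. AP-1 (TGANTCA) was found in 0 of 17, which allows up to 18.4% by the Wilson interval, compared with 11.9% of all peaks. The composite contains a GATA sequence, so these counts overlap. In the 200 bp windows each interval for the listed peaks includes the share of all peaks. The 17 peaks come from 3 regions and are not independent, which the intervals do not take into account. In whole peaks ETS sequences were found in 14 of 17 (59.0 to 93.8%), compared with 54.4% of all peaks. ETS was the only one of the 8 motifs whose interval lay apart from the share of all peaks, without correction for the number of motifs. The listed peaks were also longer than the list as a whole, with medians of 562 and 451 bp, and the part of length in this count was not tested. Per kb there were 2.45 ETS matches at the listed loci and 1.77 in the whole list.

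GATA sequences were also counted over the whole extended genes, peaks or not. The 6 genes without peaks ranged from 12.2 per 10 kb at MIR142 to the highest value of the set. MIR181A1HG had 32.8 per 10 kb, MIR17HG 29.8 and MIR155HG 28.3, with no peak at any of the 3, while MIR144 had 13.2 and MIR22HG 8.09. MIR223 had 27.9. Of the 53 GATA sequences around MIR144, 10 (18.9%) were in a peak, close to the 18.2% of bases that peaks covered there. Around MIR22HG 6 of 37 (16.2%) were in a peak, where peaks covered 7.27%, and around MIR223 3 of 112 (2.68%), where they covered 3.06%. Composites were found 15 times at MIR181A1HG, 10 times each at MIR155HG and MIR17HG and 3 times each at MIR144 and MIR22HG. Among the other genes without a peak, MIR146A had 3 (0.748 per 10 kb), MIR21 had 1 (0.250) and MIR142 had 0. At MIR144 and MIR22HG 1 of 3 was in a peak. The extended genes differ in length. Per 10 kb there were 0.751 composites at MIR181A1HG, 1.87 at MIR155HG and 1.11 at MIR17HG, compared with 0.748 at MIR144 and 0.656 at MIR22HG. MIR223 had 5 composites, or 1.25 per 10 kb, none of them in a peak.

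**Figure D4:**
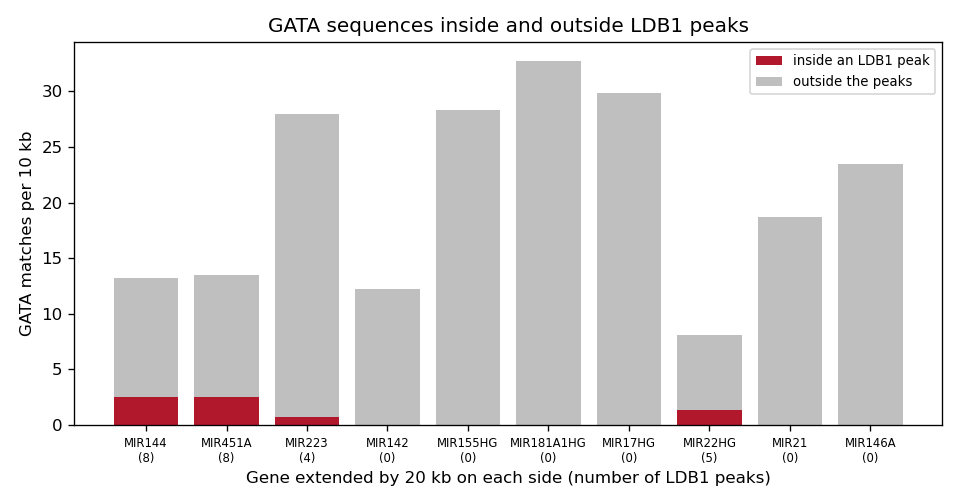
GATA sequences per 10 kb (vertical axis) in each of the 10 genes extended by 20 kb, with the number of LDB1 peaks in brackets (horizontal axis). Red is the part inside a peak and grey the part outside. MIR181A1HG, MIR17HG and MIR155HG are high (32.8, 29.8 and 28.3) with 0 peaks, and MIR144 has 13.2 with 8 peaks.

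The 6 genes without a peak were then described by the distance to the nearest one. MIR142, expressed throughout the blood lineages, was the closest, at 32.3 kb from a peak of 1158 bp, whose midpoint was 628 bp from a start of RNF43. Its host gene MIR142HG had no peak within 20 kb. MIR181A1HG, host of microRNAs that tune T cell receptor signalling, was 121 kb away, and the nearest peak was 17414 bp from a start of PTPRC, the gene for CD45. MIR146A, which restrains NF-kB signalling through TRAF6 and IRAK1, was 137 kb away, and its host gene MIR3142HG had no peak within 20 kb. MIR21, a growth-promoting microRNA, was 139 kb away. It lies near the end of VMP1, and the nearest peak (480 bp) had its midpoint 1002 bp from a start of PTRH2 and 4765 bp upstream of the VMP1 start, outside the limit set from the hairpin. MIR155HG, host of a microRNA of B cell and macrophage activation, was 847 kb from a peak. MIR17HG, whose cluster is known as a MYC target, was 3260 kb from a peak. Over annotated miRNA genes the median distance was 123 kb with an upper quartile of 431 kb, and for long noncoding genes 145 kb and 473 kb. MIR155HG and MIR17HG thus lay beyond the upper quartile of their kind.

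Other microRNA genes of blood cells were examined in the same way, from a list of 36 names of which 35 were in the annotation. Of these 12 had a peak (34.3%, 20.8 to 50.8%), compared with 20.9% of all genes, a value just inside the interval. Among hairpins 9 of 24 had a peak (37.5%, 21.2 to 57.3%), compared with 18.8% of miRNA genes, which lies below the interval. Among host genes 3 of 11 had a peak (27.3%, 9.75 to 56.6%), compared with 19.5% of long noncoding genes. With genes of overlapping windows counted once, 12 of 30 separate regions had a peak (24.6 to 57.7%), an interval above the 20.9% of all genes, which were not merged in this way. The list was chosen with earlier results known and its genes are not replicates, so these shares are a description. MIR29B2CHG, a host gene of 118 kb, had 7 peaks of 241 to 743 bp. MIR182 had 6, up to 2243 bp, with the nearest 849 bp upstream of the hairpin. MIR10A, MIR103A2, MIR125A and MIR181A2HG had 2 each, and MIR126, MIR130A, MIR196A1, MIR106B, MIR191 and MIRLET7BHG had 1 each. The 23 without a peak included MIR150, MIR221, MIR222 and MIR222HG, DLEU2 and MIR15A, MIR23AHG and MIR24-2, MIR100HG and MIR99AHG. MIR181A2HG differed from MIR181A1HG in this respect. A peak of 265 bp lay 44 bp from its start, and both genes carry a hairpin for miR-181a-5p with the same mature sequence. In the 200 bp around the midpoints the composite was found at 1 of the 12 loci with a peak, in 1 of the 6 peaks of MIR182. Of all peaks 11.1% held it, which is a share of peaks and not of loci.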

How the data were processed

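The authors made 1 CUT&Tag library with an LDB1 antibody and 1 with IgG from NB4 cells. Per the paper and the submitters' processing notes, reads were aligned to hg38 with Bowtie2 (2.4.4) and peaks were called with MACS3 (3.0). Use of the IgG library as a control, and removal of duplicates, are not given in the sources used here. Each LDB1 peak was deposited as a position with its length in bp, without a score or summit, and the midpoint was used in place of a summit. Start and end are counted from 1.

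Genes were taken from GENCODE release 44 on chromosomes 1 to 22, X and Y. Distances run from the peak midpoint to the start of the gene, on its strand. Motifs were consensus letters, and copies of the central 31 bases were counted in hg38 without alternate contigs. Shares have Wilson 95% intervals. The members and lists were chosen with earlier results of these data known. All 10 genes are named, and others as neighbouring gene, host or member of the second list, apart from the miRNA genes of the closing observations, chosen after their values were seen. Counting of overlaps and of GATA, composite and AP-1 sequences was tested on simulated data, and the other motifs were not tested in this way. Tools were pandas (2.3.3) and numpy (2.4.6) under Python (3.11.15), with intervals from SciPy (1.17.1) and plots from matplotlib (3.10.9). Alternatives were other flanks (3, 10 and 50 kb), midpoint overlap, long peaks, peaks whose central sequence is found once, and other motif windows.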

Additional observations from a re-analysis of the deposited data

How the results depend on the processing

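No paired analysis was possible because the design holds 1 LDB1 and 1 IgG library. Of 30 alternative values for 6 results, 21 stayed within 1.5 times the value reported and 9 did not. The number of listed genes with a peak was between 3 and 5 under all 6 of its alternatives. The count of those with a midpoint at most 3 kb from the start was 3 under both of its alternatives. They were MIR22HG and, through the same peaks, MIR144 and MIR451A. The share of all genes under this midpoint rule is not given here, so this count has no background beside it. The number of peaks at these genes was 11 with 10 kb on each side, 5 with 3 kb and 10 with peaks of at least the median length, each fewer by construction. Other blood microRNA genes with a peak numbered 5 with 3 kb and 7 with the longer peaks. GATA sequences were found in 11 peaks when the whole peak was searched and in 2 with 10 kb on each side. The composite was found in 0 peaks in windows of 100 bp and in 2 in whole peaks. These follow from longer or shorter windows and fewer peaks. Among miRNA genes the share with a peak was 5.11% with 3 kb, 12.3% with 10 kb and 33.0% with 50 kb. With peaks of at least the median length it was 12.2%. Both lists also hold host genes, for which shares under these settings are not given here. The position of the summit and the height of peaks were not analysed here, so a long peak may be centred away from its highest point, which limits the counts in 200 bp most for the longest peaks.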

Other observations

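Over all annotated miRNA genes, the numbers of peaks within 20 kb reached 15. The genes named here were chosen after their values were seen. MIR6855 had 15 peaks, and MIR5093 had 8, as did MIR451B and MIR4732, which lie beside MIR144 and share its window. MIR1302-10 and MIR6510 had 7 each. MIR192 and MIR1908 had 6 each, and MIR183 and MIR148B had 5 each. The list is not complete at these numbers. Hairpins that lie close together share peaks, so these genes are not separate regions.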
